A study of Mus musculus with 12 samples.

Results

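The 92 genes described here encode the subunits of the mitochondrial respiratory chain and of ATP synthase, together with the Nduf- and Sdh-named assembly factors. The rule for membership starts from gene symbols: it takes genes with a probe set annotated to a single symbol that starts with Nduf, Sdh, Uqcr, Cox4, Cox5, Cox6, Cox7, Cox8 or Atp5. Measured values enter in the choice of probe set and in a filter on level. Each gene is read from its brightest probe set over 12 arrays. Of 94 such symbols, 92 had a probe set at or above the 40th percentile of its array on 3 or more arrays, out of 13598 genes that passed the same filter. The 2 that did not pass were Cox7b2, the testis isoform of a complex IV subunit, with group means of 3.14 to 3.34 (log2), and Ndufb4, a complex I subunit whose single-symbol probe set had group means of 3.77 to 4.03.

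Liver RNA of male mice aged 6 to 12 weeks, kept in 12 h light and 12 h dark and taken at ZT14 (14 h after lights on), was measured on mouse expression arrays, with 3 mice in each of 4 groups. The first group was wild type on the Jcl:ICR background, fed normal diet. The others received the same diet with 0.5% bezafibrate, a fibrate drug that activates the nuclear receptor PPARα, for 5 days: wild type on the Jcl:ICR background, PPARalpha-null mice from a cross of 129S4SvJae-PPARalphatm1Gonz/J with Jcl:ICR, and Clk/Clk mutants on the Jcl:ICR background, which carry the mutant form of the circadian transcription factor CLOCK. No untreated mutant was measured, so a mutant's difference from treated wild type combines its genotype with its response to the drug, and for the PPARalpha-null mice genotype and the 129S4SvJae part of the background cannot be told apart.

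The respiratory chain passes electrons from NADH (complex I) and succinate (complex II) through coenzyme Q, complex III and cytochrome c to complex IV, which reduces oxygen, and ATP synthase uses the proton gradient that complexes I, III and IV build. Several nuclear-encoded complex IV subunits exist as isoform pairs, with a ubiquitous form in liver and a second form in heart and skeletal muscle, testis or lung. Liver burns fatty acids through this chain, and PPARα is the receptor under which the fatty acid oxidation enzymes of liver are induced by fasting and fibrates.

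Values are log2 expression values, so a difference of 1 is a doubling in either direction. A gene is said to have risen or fallen, or to be higher or lower, when its adjusted p was under 0.05 in limma's moderated test with Benjamini-Hochberg adjustment over all 13598 genes, and is said to have passed the 1.5-fold threshold when it also differed by 1.5-fold (0.58 on the log2 scale) or more. The labels name no batch. Nothing in them says more about the independence of the mice than separate replicate numbers, so the p-values measure the spread between these samples. In bulk liver, fewer cells of a type and less RNA per cell cannot be told apart.

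The members were bright and steady. Of the 85 members that are not tissue-specific isoforms, 74 lay at or above the 90th percentile of every array, and the median residual SD within groups was 0.061 for the members against 0.12 for all genes. Hepatocyte markers were all measured, with albumin at 14.82 to 14.86 in the group means, and 3 of 7 fell past 1.5-fold with bezafibrate (Tat by 1.64, Serpina1c by 0.83 and Hnf4a by 0.69). Of 12 sinusoidal endothelium and stellate cell markers, 3 fell past 1.5-fold with the drug. Of the 9 of 12 macrophage and blood cell markers that were tested, 1 rose past 1.5-fold with the drug and 4 were lower past 1.5-fold in Clk/Clk mice. The summed linear signal of that list was 3140 to 3924 in Clk/Clk mice against 4746 to 7031 in treated wild type. Of all genes, 12.8% rose and 7.77% fell that far with the drug, and 6.49% were lower in Clk/Clk mice. In PPARalpha-null mice 2 hepatocyte markers were higher past 1.5-fold and 2 macrophage and blood cell markers lower. Of the endothelium and stellate cell markers, 1 was higher and 1 lower there, beside 5.35% and 8.09% of all genes. The part of these markers in the results was not tested. The probe set of Clock read 7.81 ± 0.21 (SD, n = 3) in untreated wild type and 9.25 ± 0.16 (SD, n = 3) in Clk/Clk mice, and that of Ppara read 10.78 ± 0.23 (SD, n = 3) in treated wild type and 9.88 ± 0.16 (SD, n = 3) in PPARalpha-null mice. Which part of either transcript these probe sets read is not known here, so they do not check the labels.

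With bezafibrate many members rose by small steps and a few by large ones. In treated against untreated wild type, 42 members rose and 7 fell, while 43 did not pass the test, against 27.3% of all genes that rose and 21.6% that fell. The members' median difference was 0.16, against 0.0065 for all genes, with each array scaled as deposited. When each array was centred on its median over the 13598 tested genes, all genes' median moved by -0.12 and the members' median became 0.045. The counts became 27 risen and 13 fallen. Centring shifts all genes of an array alike and cannot change how far the members lie from them. Quantile normalization of the values of the tested genes can, and put the members' median 0.24 above that of all genes, against 0.16 on the deposited scale. Passing 1.5-fold as well, 3 members rose (Cox6b2, Cox7a1 and Ndufab1), beside 12.8% of all genes, and 2 fell (Ndufaf4 and Ndufaf6), beside 7.77%.

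The comparison of the mutants with treated wild type shares the treated wild-type mice with the drug comparison, so these differences are given side by side and not as independent evidence. In PPARalpha-null mice on bezafibrate, 5 members were higher and 17 lower than in treated wild type, beside 16.5% and 18.6% of all genes, and the members' median difference was -0.068 against 0.010 for all genes. With arrays centred this median turned to 0.024 and the counts to 13 higher and 9 lower, as all genes' median moved by 0.092. The members' median lay 0.078 below that of all genes on the deposited scale and 0.11 below under quantile normalization. Past 1.5-fold, 1 member was higher in PPARalpha-null mice (Ndufaf6, beside 5.35% of all genes) and 3 were lower (Cox6b2, Cox7a1 and Ndufab1, beside 8.09%).

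In Clk/Clk mice on bezafibrate, 10 members were higher and 4 lower than in treated wild type, beside 10.6% and 14.1% of all genes. Their median difference was 0.055 against 0.020 for all genes, and with arrays centred it was 0.14 with 31 members higher and 4 lower. Quantile normalization of the values of the tested genes put the members' median 0.016 below that of all genes. The deposited scale put it 0.034 above, so no direction is given for the family in this comparison. No member was higher past 1.5-fold in limma's test, beside 2.64% of all genes (23 members were higher at an unadjusted p under 0.05 at any size), and 3 were lower (Cox7a1, Ndufs5 and Ndufaf5), beside 6.49%. Without any 1 of the 6 mice compared, only 3 to 6 members were higher at any size. Of the 10, Cox7a2l, Ndufa2 and Ndufb10 kept the call in all 6 of these fits, Ndufaf1 in 3, Ndufb3 in 2, Ndufs3, Ndufa7 and Sdhb in 1 each, and Cox4i1 and Ndufv2 in 0.

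**Figure D1:**
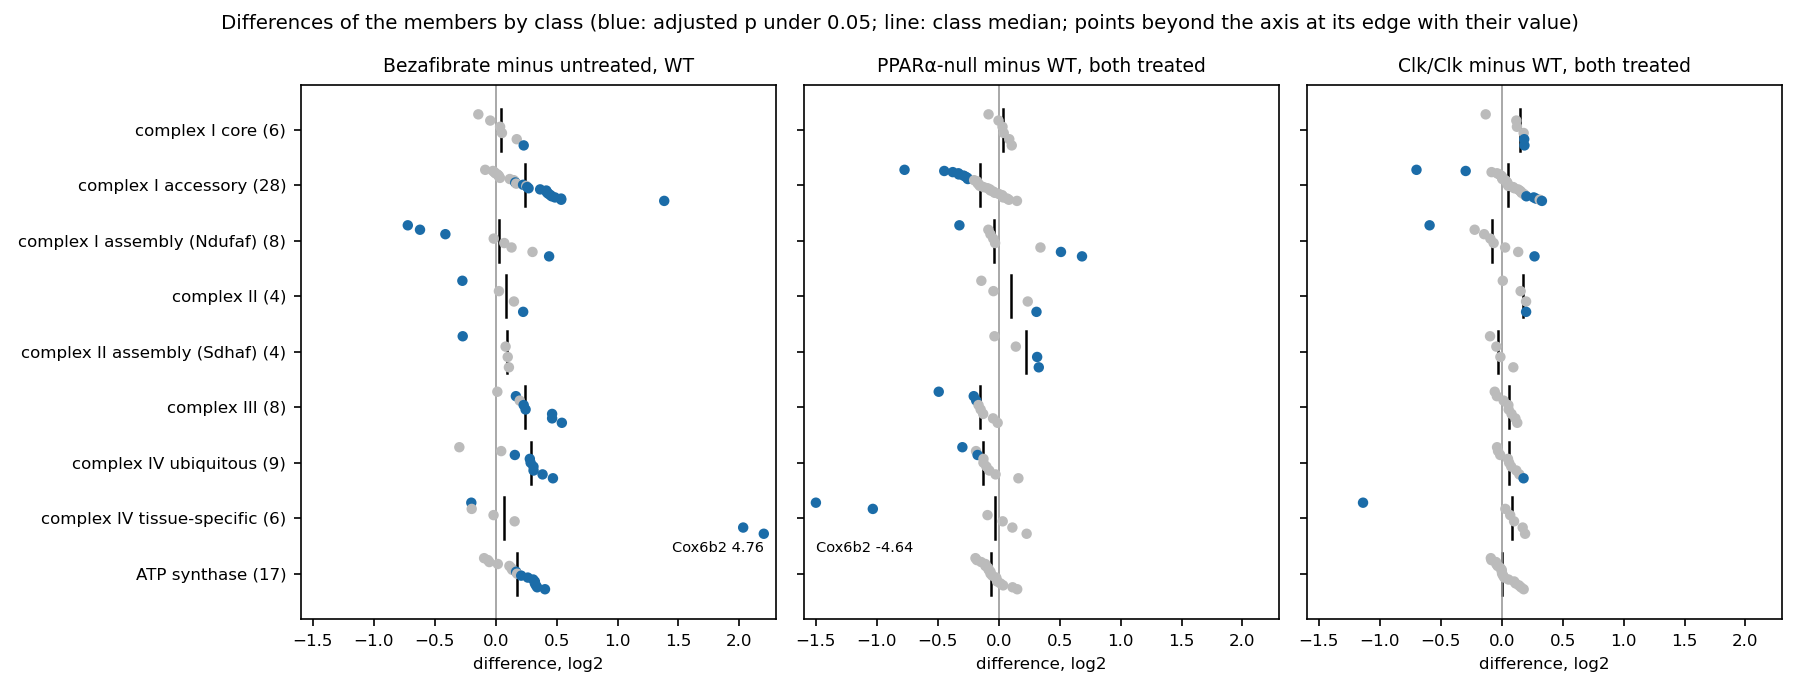
Each point is a member's difference between group means (x axis, log2) in the 3 main comparisons, by class with the number of members in brackets; blue points have an adjusted p under 0.05 and black lines are class medians. Cox6b2 lies beyond the axis at 4.76 and -4.64, most accessory complex I, complex III and ubiquitous complex IV points lie right of 0 with the drug, and complex I assembly factors spread to both sides. Cox7a2l and Ndufa4l2 belong to no plotted class.

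The largest differences among the members were those of complex IV isoforms. Cox6b2, the testis isoform of subunit 6b, read 4.99, 5.46 and 4.84 in untreated wild type and 10.31, 9.67 and 9.58 in treated wild type. It read 4.99, 5.12 and 5.55 in treated PPARalpha-null mice and 9.77, 9.87 and 10.23 in treated Clk/Clk mice. The treated wild-type and Clk/Clk mice formed one range and the untreated wild-type and treated PPARalpha-null mice another, with no mouse between 5.55 and 9.58. Cox6b2 rose with bezafibrate by 4.76 (SE 0.22, adjusted p = 4.43e-08, limma), a 27.1-fold difference in signal, and it was 4.64 lower in PPARalpha-null than in treated wild-type mice (fold 24.9, adjusted p = 1.21e-07, limma). The low values lie near the filter level of 4.87 to 4.92, so the size of these folds rests on what the array reads for a transcript near its background. In Clk/Clk mice the difference from treated wild type was 0.10, with a 95% interval from -0.39 to 0.59.

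Its ubiquitous partner Cox6b1 moved little on the same arrays. It read 13.48, 13.42 and 13.36 in untreated wild type, 13.76, 13.76 and 13.68 in treated wild type, 13.69, 13.56 and 13.57 in PPARalpha-null mice, and 13.85, 13.90 and 13.88 in Clk/Clk mice. Untreated and treated wild type did not overlap, and Cox6b1 rose by 0.31 (SE 0.063, adjusted p = 0.00175, limma). The within-array difference Cox6b2 minus Cox6b1 differed by 4.45 with bezafibrate and by -4.51 in PPARalpha-null mice, without overlap between groups. Both gave an exact two-sided permutation p of 0.1, the smallest that 3 against 3 mice allow (0.14 after Benjamini-Hochberg adjustment over the 21 pair comparisons made). The pair difference differed by -0.043 in Clk/Clk mice and the groups overlapped (exact permutation p = 1). In these pair values and in the levels of different probe sets, the array does not give amounts of transcript that can be set against each other, so only changes are compared.

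Cox7a1, the heart and skeletal muscle isoform of subunit 7a, had a different pattern. It read 5.57, 5.86 and 5.02 in untreated wild type and 7.88, 7.47 and 7.19 in treated wild type. It read 6.28, 6.67 and 6.49 in PPARalpha-null mice and 6.54, 6.72 and 5.86 in Clk/Clk mice. Both mutants lay between, below every treated wild-type mouse, while 1 Clk/Clk mouse reached down into the untreated range. The drug difference was 2.03 (SE 0.26, adjusted p = 6.58e-05, limma), and the differences from treated wild type were -1.03 in PPARalpha-null mice (adjusted p = 0.00982, limma) and -1.14 in Clk/Clk mice (adjusted p = 0.00885, limma). Against untreated wild type, treated PPARalpha-null mice were still higher by 0.998 (adjusted p = 0.0187, limma), where 3.96% of all genes were higher past 1.5-fold, and Clk/Clk mice by 0.89 (adjusted p = 0.0148, limma), where 10.6% were. Clk/Clk and PPARalpha-null mice differed in Cox7a1 by -0.11, with a 95% interval from -0.67 to 0.46.

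The ubiquitous Cox7a2 read 13.38, 13.39 and 13.40 in untreated wild type, 13.68, 13.68 and 13.64 in treated wild type, 13.37, 13.31 and 13.43 in PPARalpha-null mice and 13.57, 13.66 and 13.66 in Clk/Clk mice. It rose by 0.28 with the drug (adjusted p = 0.00232, limma) and was 0.30 lower in PPARalpha-null mice (adjusted p = 0.00266, limma). The pair difference Cox7a1 minus Cox7a2 differed by 1.75 with bezafibrate, by -0.73 in PPARalpha-null mice and by -1.10 in Clk/Clk mice. In each case the groups did not overlap (exact permutation p = 0.1).

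The other tissue-specific forms did not share this rise. Cox6a2, the heart and skeletal muscle form of subunit 6a, fell by 0.20 (adjusted p = 0.0405, limma), and Ndufa4l2, a paralogue of the complex IV subunit Ndufa4 best known as a hypoxia-induced gene, fell by 0.27 (adjusted p = 0.0355, limma). Cox8b, the heart and skeletal muscle form of subunit 8, differed by 0.16, Cox8c, its testis form, by -0.20, and Cox4i2, the lung form of subunit 4, by -0.018, and none of these 3 passed the test. Their ubiquitous partners Cox6a1, Ndufa4, Cox8a and Cox4i1 rose by 0.29, 0.16, 0.47 and 0.38. Each of these pair differences was lower in every treated than in every untreated mouse, with differences of means from -0.31 for Cox8b minus Cox8a to -0.67 for Cox8c minus Cox8a (exact permutation p = 0.1 each). The calls of Cox6a2 and Ndufa4l2 held in 2 of the 6 fits that left out a mouse and that of Ndufa4 in 1. None of these 5 isoforms passed the test in either mutant against treated wild type. Their group means ran from 5.19 to 8.28. Cox8c lay at the 79.8 to 83.3 percentile of its arrays, and Cox6a2 and Ndufa4l2 between 60.1 and 69.1. Cox4i2 and Cox8b lay between 42.9 and 54.0.

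**Figure D2:**
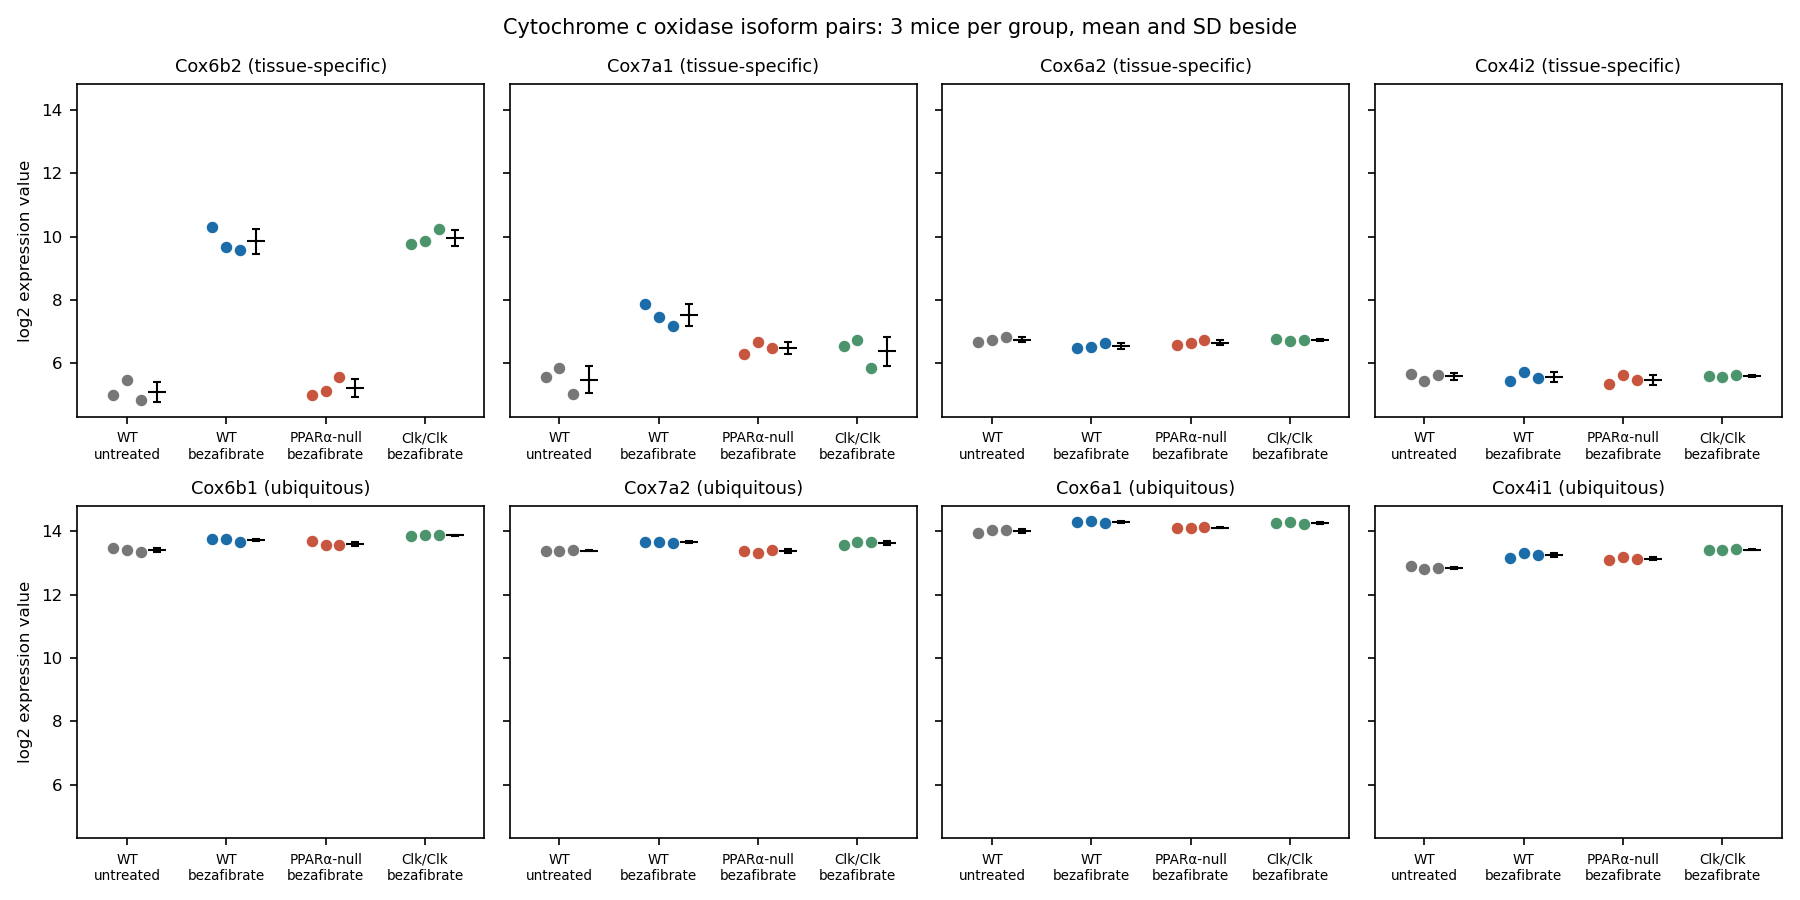
Log2 expression values (y axis, one scale) of 4 tissue-specific complex IV isoforms (top row) and their ubiquitous partners (bottom row), 1 point per mouse by group, with the mean and SD of 3 mice beside. Cox6b2 sits at 4.84 to 5.55 in untreated wild type and PPARalpha-null mice and at 9.58 to 10.31 in the other groups, Cox7a1 is highest in treated wild type, and the partners stay within 12.8 to 14.3.

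Since these isoforms belong to other tissues, markers of those tissues were read too. Of 16 heart and skeletal muscle markers, 7 passed the filter and none passed 1.5-fold in any main comparison. With the drug, 12.8% of all genes rose and 7.77% fell that far. Ckm, the muscle creatine kinase, fell by 0.33 with the drug. The summed linear signal of all 16 was 509 to 535 in untreated wild type, 484 to 492 in treated wild type, 515 to 552 in PPARalpha-null mice and 504 to 534 in Clk/Clk mice. Of 14 testis and sperm markers, 2 passed the filter, and the summed signal was lower in treated wild type (338 to 384) than in untreated wild type (460 to 535), with Prm1, a sperm protamine, down by 1.03 (adjusted p = 9.21e-06, limma). Prm2, the other testis marker that passed the filter, differed by 0.022. Neither summed signal was higher in treated than in untreated wild type. Most markers of both lists did not pass the filter, so these sums can say little about RNA of those tissues. Of 9 fat cell markers, 6 were on the array and 3 passed the filter. Cidea, a lipid droplet protein that PPARα ligands also induce in liver, rose by 2.02 and differed by -2.08 in PPARalpha-null mice. Elovl3, a fatty acid elongase, was 2.18 higher in Clk/Clk mice. Retn differed by -0.16 with the drug, 0.14 in PPARalpha-null and 0.11 in Clk/Clk mice and did not pass the test. The summed signal of the 6 was 294 to 351 in untreated wild type, 392 to 623 in treated wild type, 477 to 687 in PPARalpha-null and 1175 to 1878 in Clk/Clk mice. The Clk/Clk sum is mostly that of Elovl3, with a mean of 10.36 there against 6.20 for Cidea and 5.66 for Retn. The part of these markers in the isoform changes was not tested.

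Over all 12 arrays, the genes whose values followed Cox6b2 most closely were Apmap, Pex11a, Acsl3, Mmd, Krt23, Wdr73, Cpt2, Acot8, Enc1 and Ppcs, with Pearson correlations of 0.989 to 0.993. These are descriptions over 12 arrays in 4 groups, and the arrays of a group share its diet and genotype. Pex11a, a peroxisome proliferation factor, rose by 2.15 with the drug, and Cpt2, a mitochondrial fatty acid import enzyme, by 1.58. Both, like Cox6b2, were lower in PPARalpha-null mice (by 1.94 and 1.38) and did not pass the test in Clk/Clk mice (0.026 and 0.15). Cox7a1 was followed most closely by Nup93, Zfp810 and Nagk, at 0.959 to 0.974, each of them lower in both mutants than in treated wild type (for Nagk, an N-acetylglucosamine kinase, by 0.81 and 0.87).

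The promoters of the isoforms are shown because paired genes with unlike responses can be read side by side. Each window runs from 250 bases before to 50 after the gene's start, in RefSeq's table for GRCm38.p6, in which 76 of the 92 members had at least one window (81 windows). Capitals mark a match to one of 6 motifs searched on both strands: the PPAR/RXR direct repeat (the half-site AGGTCA, 1 base of any kind, and AGGTCA again), the nuclear receptor half-site it contains (AGGTCA), the E-box of CLOCK (CACGTG), the motif of GABPA and other ETS factors (CCGGAAG), that of YY1 (AAGATGGC) and the NRF1 motif, given by name. Cox6b2 lies at chr7:4753045-4753344 (minus strand), Cox6b1 at chr7:30626065-30626364 (minus strand) and Cox7a1 at chr7:30183921-30184220 (plus strand).
Cox6b2: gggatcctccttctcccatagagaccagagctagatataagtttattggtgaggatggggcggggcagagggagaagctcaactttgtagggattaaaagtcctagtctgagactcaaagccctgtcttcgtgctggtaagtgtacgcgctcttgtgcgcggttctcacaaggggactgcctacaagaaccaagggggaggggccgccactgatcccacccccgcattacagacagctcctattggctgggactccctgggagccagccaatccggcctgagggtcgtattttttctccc
Cox6b1: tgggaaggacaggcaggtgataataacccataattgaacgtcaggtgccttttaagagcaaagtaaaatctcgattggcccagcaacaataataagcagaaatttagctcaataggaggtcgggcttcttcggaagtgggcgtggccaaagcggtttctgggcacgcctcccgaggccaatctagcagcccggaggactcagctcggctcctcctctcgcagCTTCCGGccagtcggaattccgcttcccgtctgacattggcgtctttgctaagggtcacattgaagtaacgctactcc
Cox7a1: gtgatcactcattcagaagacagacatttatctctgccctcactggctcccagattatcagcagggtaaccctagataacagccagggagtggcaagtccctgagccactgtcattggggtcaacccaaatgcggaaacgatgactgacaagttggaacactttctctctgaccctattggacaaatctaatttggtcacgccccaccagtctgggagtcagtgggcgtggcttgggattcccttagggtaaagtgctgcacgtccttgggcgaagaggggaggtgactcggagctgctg
Cox6b1 holds a match to the ETS motif on the opposite strand, and Cox6b2 and Cox7a1 hold none of the 6. Over the members, the direct repeat was found in 0 of 76, against 0.0481% of 27025 genes with a window. The half-site was found in 18.4% of members and 18.1% of all genes, and the E-box in 7.89% and 8.09%. The NRF1 motif was found in 23.7% of members against 5.19% of genes, the ETS motif in 28.9% against 9.93%, and the YY1 motif in 13.2% against 3.19%; the factors NRF1, GABPA and YY1 are known from textbook work as regulators of respiratory chain genes. A match is a run of letters, not a bound site.

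Most ubiquitous complex IV subunits rose by small steps with bezafibrate. Of 9, 7 rose and none fell, beside 27.3% and 21.6% of all genes, with a class median of 0.29 (0.28 above that of all genes). The largest differences were those of Cox8a (0.47, adjusted p = 1.50e-04, limma) and Cox4i1 (0.38, adjusted p = 2.86e-04, limma), both structural subunits of the oxidase, followed by Cox6b1 and Cox5b at 0.31 each. Cox5a, bright at 13.56 to 13.61 in every group mean, differed by 0.045, and Cox7c, read here only by a dim probe set with a mean of 6.04, differed by -0.30. Neither passed the test. A second bright probe set of Cox5a differed by 0.18 and rose in the fit that read it, so no direction is given for Cox5a. In PPARalpha-null mice Cox7a2 and Cox6a1 were lower, by 0.30 and 0.17, and in Clk/Clk mice Cox4i1 was higher, by 0.18. The call of Cox6a1 in PPARalpha-null mice, that of Cox4i1 in Clk/Clk mice and the drug call of Cox6c were each lost in all 6 fits that left out a mouse. Cox7a2l, which despite its name acts in joining complexes III and IV into supercomplexes, was higher in Clk/Clk mice: it read 11.15, 11.30 and 11.25 in treated wild type and 11.57, 11.67 and 11.67 in Clk/Clk mice. The difference was 0.40 (SE 0.063, adjusted p = 0.00121, limma), and its other 2 probe sets differed by 0.38 and 0.40.

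The subunits of complex I are taken by their role. Of the 28 accessory subunits, which surround the catalytic core, 15 rose with bezafibrate and none fell, beside 27.3% and 21.6% of all genes, with a median of 0.24 against 0.0065. Ndufa4 is counted among them by its name, though it is now known as a complex IV subunit. The drug calls of Ndufa8 and Ndufs4 held in 3 of the 6 fits that left out a mouse and that of Ndufa4 in 1. Of the 6 measured core subunits, only Ndufs7 rose (0.23, adjusted p = 0.0129, limma) and the median was 0.044. Ndufs3 differed by -0.14 without passing the test. In PPARalpha-null mice 9 accessory subunits were lower and none higher, beside 18.6% and 16.5% of all genes (median -0.16), and no core subunit passed the test (median 0.036). Against treated wild type, Clk/Clk mice had 4 accessory subunits that were higher (Ndufb10 by 0.33, Ndufa2 by 0.28, Ndufb3 by 0.26 and Ndufa7 by 0.20) and 2 that were lower. Of the core subunits, Ndufs3 and Ndufv2 were higher, by 0.19 and 0.18, calls that the fits without 1 mouse mostly lost. These counts stand beside 10.6% of all genes that were higher and 14.1% that were lower. Whether the core and accessory subunits differ from each other was not tested.

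Ndufab1, the mitochondrial acyl carrier protein, which is both an accessory subunit of complex I and the carrier for mitochondrial fatty acid and lipoic acid synthesis, stood apart among them. It read 11.91, 11.92 and 11.92 in untreated wild type and 13.36, 13.31 and 13.23 in treated wild type. It read 12.51, 12.48 and 12.59 in PPARalpha-null mice and 12.99, 13.07 and 12.95 in Clk/Clk mice. The 4 groups did not overlap and followed the order untreated wild type, PPARalpha-null, Clk/Clk, treated wild type. The drug difference was 1.38 (SE 0.063, fold 2.61, adjusted p = 3.49e-08, limma), the PPARalpha-null difference from treated wild type was -0.77 (adjusted p = 4.50e-06, limma) and the Clk/Clk difference was -0.30 (adjusted p = 0.00611, limma). PPARalpha-null mice on the drug were still 0.61 above untreated wild type (adjusted p = 1.02e-04, limma). All 5 single-symbol probe sets of Ndufab1 differed upward with the drug, by 0.83 to 1.38, and downward in PPARalpha-null mice, by 0.38 to 0.85. In Clk/Clk mice they ran from -0.40 to 0.35 and so disagreed in direction. The Clk/Clk call is that of the brightest probe set, the one tested. Its promoter, at chr7:122101799-122102098 (minus strand), held none of the 6 motifs.
Ndufab1: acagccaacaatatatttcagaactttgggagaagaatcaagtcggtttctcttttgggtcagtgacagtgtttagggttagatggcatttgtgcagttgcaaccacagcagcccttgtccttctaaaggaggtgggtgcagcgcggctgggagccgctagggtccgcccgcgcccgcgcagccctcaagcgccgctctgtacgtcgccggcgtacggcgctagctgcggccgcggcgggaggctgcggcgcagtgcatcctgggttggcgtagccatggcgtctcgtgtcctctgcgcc
This window is shown because Ndufab1 was the one member among the ubiquitous subunits to rise past 1.5-fold.

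The next accessory subunits by size were Ndufc1 and Ndufa7, at 0.54 each with the drug, Ndufb7 at 0.49 and Ndufa3 at 0.46, all of them lower in PPARalpha-null than in treated wild-type mice (by 0.33, 0.29, 0.27 and 0.38). Ndufb3 read 10.78, 10.98 and 10.93 in untreated wild type, 11.40, 11.29 and 11.30 in treated wild type, 10.92, 10.79 and 10.94 in PPARalpha-null mice and 11.60, 11.62 and 11.57 in Clk/Clk mice. The PPARalpha-null mice fell into the untreated range, and all Clk/Clk mice lay above treated wild type. Its difference was 0.44 with the drug (adjusted p = 4.74e-04, limma), -0.45 in PPARalpha-null mice (adjusted p = 7.14e-04, limma) and 0.26 in Clk/Clk mice (adjusted p = 0.0229, limma). At the other end, Ndufc2, Ndufa12, Ndufb6 and Ndufv3 differed by -0.086 to -0.0025 with the drug and did not pass the test. Other bright probe sets differed by 0.16 and 0.048 for Ndufc2, 0.13 for Ndufb6, and 0.10 and -0.10 for Ndufa12. No direction is therefore given for Ndufc2, Ndufb6 and Ndufa12.

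Ndufs5, an accessory subunit on the intermembrane-space side, was lower in Clk/Clk mice. It read 11.26, 11.27 and 11.23 in untreated wild type, 11.43, 11.51 and 11.32 in treated wild type, 11.50, 11.30 and 11.00 in PPARalpha-null mice, and 10.84, 10.63 and 10.70 in Clk/Clk mice. All 3 Clk/Clk mice lay below every other mouse, and the difference from treated wild type was -0.70 (SE 0.11, adjusted p = 0.0013, limma). A brighter probe set annotated both to Ndufs5 and to its pseudogene Ndufs5-ps, which stood outside the test, did not show this: its mean was 12.17 in treated wild type and 12.21 in Clk/Clk mice. The probe sets of this gene therefore disagree on the Clk/Clk difference.

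The complex I assembly factors, which build the complex and are not part of it, went both ways. With bezafibrate 1 of 8 rose (Ndufaf7, a methyltransferase, by 0.44) and 3 fell, beside 27.3% and 21.6% of all genes. Ndufaf4 read 11.42, 11.31 and 11.28 in untreated wild type, 10.41, 10.66 and 10.77 in treated wild type, 11.19, 11.06 and 11.13 in PPARalpha-null mice and 10.73, 10.64 and 10.55 in Clk/Clk mice. The treated wild-type and Clk/Clk mice overlapped and lay below all PPARalpha-null and untreated mice. The drug difference was -0.72 (SE 0.093, adjusted p = 7.37e-05, limma), and a second Ndufaf4 probe set gave -0.78. It was 0.51 higher in PPARalpha-null than in treated wild-type mice (adjusted p = 0.00151, limma).

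Ndufaf6 read 8.90, 9.36 and 8.88 in untreated wild type, 8.58, 8.39 and 8.32 in treated wild type, 9.07, 9.18 and 9.08 in PPARalpha-null mice and 8.28, 8.39 and 8.33 in Clk/Clk mice. The groups split as for Ndufaf4. Its drug difference was -0.62 (SE 0.12, adjusted p = 0.00115, limma) and its PPARalpha-null difference 0.68 (adjusted p = 0.00106, limma), and without untreated mouse 2 or without treated wild-type mouse 3 the drug difference no longer reached 1.5-fold. Ndufaf1 fell by 0.41 with the drug (adjusted p = 8.65e-04, limma). Ndufaf5, a hydroxylase of complex I assembly, read 7.42, 7.51 and 6.95 in treated wild type, 7.55, 7.61 and 7.75 in PPARalpha-null mice and 6.62, 6.76 and 6.74 in Clk/Clk mice, with untreated mice at 7.37, 6.77 and 6.84. The Clk/Clk difference of -0.59 (SE 0.17, adjusted p = 0.0236, limma) stayed a call in only 1 of the 6 fits that left out a mouse, the one without treated wild-type mouse 3.

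**Figure D3:**
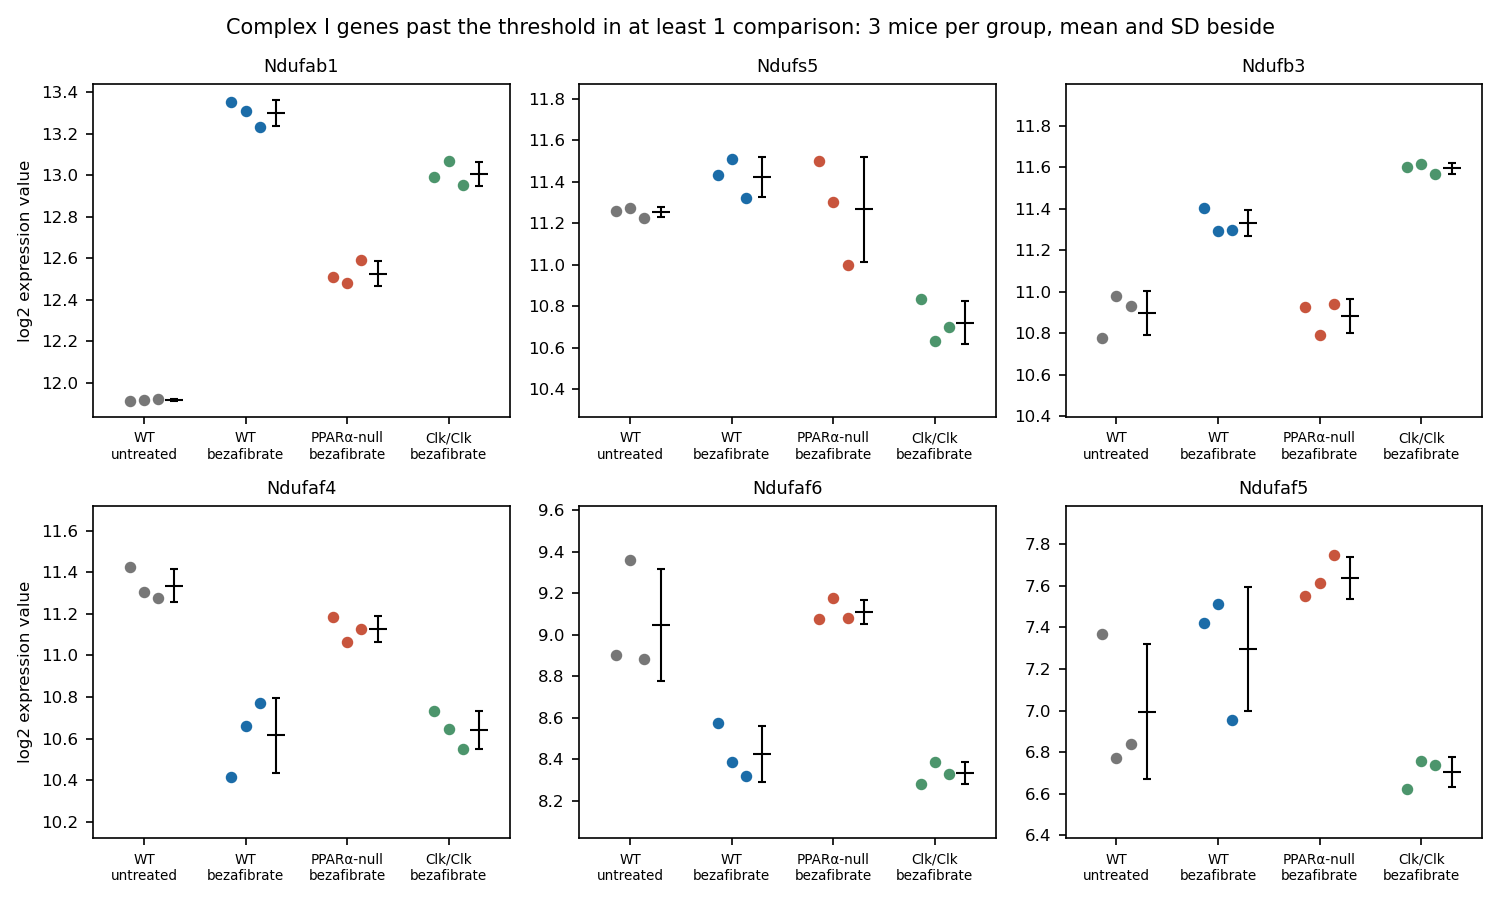
Log2 expression values (y axis, a scale of its own in each panel) of 6 complex I genes, 1 point per mouse by group, with the mean and SD of 3 mice beside. Ndufab1 is highest in treated wild type, Ndufs5 is lowest in Clk/Clk mice, and Ndufaf4 and Ndufaf6 are lower in treated wild type and Clk/Clk mice than in the other groups.

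Ndufaf4 is shown with its promoter, at chr4:24897833-24898132 (plus strand), because it was the member that fell most with the drug and its window holds a match to the NRF1 motif and, downstream of it, one to the nuclear receptor half-site.
Ndufaf4: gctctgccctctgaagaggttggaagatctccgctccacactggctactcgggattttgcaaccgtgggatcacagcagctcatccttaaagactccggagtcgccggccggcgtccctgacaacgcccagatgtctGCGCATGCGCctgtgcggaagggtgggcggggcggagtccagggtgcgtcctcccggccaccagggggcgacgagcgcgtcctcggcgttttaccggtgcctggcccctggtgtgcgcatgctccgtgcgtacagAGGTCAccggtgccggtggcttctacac

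Complex II, the succinate dehydrogenase that also belongs to the citric acid cycle, did not move as one. Sdhb, its iron-sulfur subunit, read 12.78, 12.89 and 12.78 in untreated wild type, 12.46, 12.62 and 12.54 in treated wild type, 12.89, 12.85 and 12.81 in PPARalpha-null mice and 12.71, 12.77 and 12.73 in Clk/Clk mice. The treated wild-type mice were the lowest, without overlap. Sdhb fell by 0.27 with the drug (adjusted p = 0.00482, limma) and was 0.31 higher in PPARalpha-null mice and 0.20 higher in Clk/Clk mice (adjusted p = 0.00376 and 0.0449, limma); the Clk/Clk call was lost in 5 of the 6 fits that left out a mouse and with the replicate block. Sdhc, a membrane anchor, rose by 0.23, the anchor Sdhd differed by 0.15 and the flavoprotein Sdha by 0.027, without passing the test. A second bright probe set of Sdha differed by -0.37 with the drug, and without untreated mouse 1 the one used here differed by -0.24, so no direction is given for Sdha. Of the 4 assembly factors, Sdhaf3 fell by 0.27 with the drug, and Sdhaf3 and Sdhaf1 were higher in PPARalpha-null mice, by 0.33 and 0.32. The drug calls of Sdhc and Sdhaf3 held in 2 of the 6 fits without a mouse.

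Complex III rose in most of its subunits. With bezafibrate 6 of 8 rose and none fell, beside 27.3% and 21.6% of all genes, with a median of 0.24, led by Uqcr10 at 0.54 (adjusted p = 1.85e-04, limma) and by Uqcr11 and Uqcrh, small subunits of the complex, at 0.46 each. Uqcrfs1, the Rieske iron-sulfur protein, rose by 0.23, Uqcrc1, a core protein, differed by 0.20 without passing the test, and Uqcrb, the brightest at 14.22 to 14.29, differed by 0.014. A second bright probe set of Uqcrb differed by 0.19 and rose in the fit that read it, so no direction is given for Uqcrb. The drug call of Uqcrc2 was lost in all 6 fits that left out a mouse. In PPARalpha-null mice 3 were lower (Uqcr10 by 0.49, Uqcr11 by 0.20 and Uqcrc2 by 0.18) and none higher, beside 18.6% and 16.5% of all genes. Of these calls, that of Uqcrc2 held in 2 of the 6 fits without a mouse and that of Uqcr11 in 5 (not without treated wild-type mouse 2). In Clk/Clk mice none passed limma's test, also at an unadjusted p under 0.05, with differences from -0.057 to 0.13. Cyc1, cytochrome c1 of the same complex, which does not carry the Uqcr prefix, differed by 0.074 with the drug and did not pass the test.

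The probe sets of Uqcr10, a small subunit of complex III, did not agree. The brightest, used in all counts here, read 12.05, 12.27 and 12.15 in untreated wild type, 12.82, 12.67 and 12.62 in treated wild type, 12.14, 12.27 and 12.22 in PPARalpha-null mice and 12.71, 12.82 and 12.74 in Clk/Clk mice. The second brightest read 9.78, 10.08 and 9.87 in PPARalpha-null mice and 6.12 to 6.87 in all 9 other mice. The third read 10.00, 10.31 and 10.14 in PPARalpha-null mice and 5.45 to 6.25 in the others. So the brightest put PPARalpha-null mice 0.49 below treated wild type, while the other 2 put them 3.16 and 3.91 above, with no overlap. The sources used here do not give where on the transcript each probe set lies, and the Uqcr10 result in PPARalpha-null mice is that of the brightest probe set alone.

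**Figure D4:**
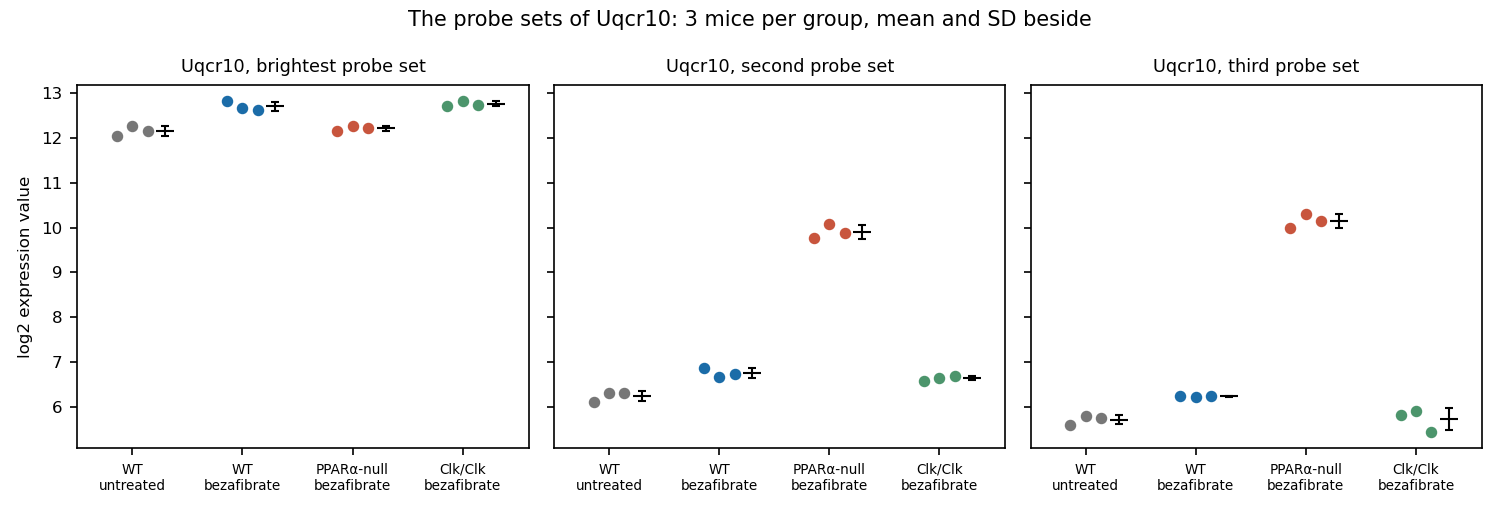
Log2 expression values (y axis, one scale) of the 3 probe sets annotated to Uqcr10, 1 point per mouse by group, with the mean and SD of 3 mice beside. In the left panel PPARalpha-null mice lie with untreated wild type at about 12.2; in the other panels they stand at 9.78 to 10.31, above all other mice.

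Of the 17 ATP synthase genes, 9 rose with bezafibrate and none fell, beside 27.3% and 21.6% of all genes, with a median of 0.18. The isoform genes of the c-ring, the rotor through which protons pass, were among them: Atp5g2 rose by 0.40 (adjusted p = 4.91e-04, limma), Atp5g1 by 0.34 and Atp5g3 by 0.26. The drug call of Atp5e held in 2 of the 6 fits that left out a mouse and that of Atp5j2 in 1. Centring lost the calls of Atp5e, Atp5g3, Atp5j2 and Atp5mpl. The catalytic subunits Atp5a1 and Atp5b differed by 0.14 and 0.11 and did not pass the test, and the lowest were Atp5md (-0.064) and Atp5h (-0.095), stator and membrane parts of the enzyme. No ATP synthase gene passed the test in either mutant against treated wild type, with differences from -0.19 to 0.15 in PPARalpha-null and from -0.089 to 0.18 in Clk/Clk mice; at an unadjusted p under 0.05, limma found 1 higher and 3 lower in PPARalpha-null mice and 2 higher in Clk/Clk mice. For Atp5h the second bright probe set differed by 0.21 with the drug, so no direction is given.

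The mouse-by-mouse class medians, each gene set against its mean in untreated wild type, did not group the mice alike in every class. Complex II assembly factors were highest in PPARalpha-null mice (0.11 to 0.25, against 0.014 to 0.057 in treated wild type). Complex I assembly factors were lowest in Clk/Clk mice (-0.20 to -0.16). Over all 92 members the medians were 0.14 to 0.20 in treated wild type, 0.081 to 0.11 in PPARalpha-null mice and 0.18 to 0.25 in Clk/Clk mice. Untreated mice ran from -0.041 to 0.043. For accessory complex I subunits they were 0.20 to 0.25, 0.056 to 0.088 and 0.28 to 0.46. In this class the groups did not overlap, with Clk/Clk mice highest. The median gene-by-gene difference of this class between Clk/Clk and treated wild-type mice was 0.053. In that comparison 4 genes of the class were higher and 2 lower, beside 10.6% and 14.1% of all genes. As for the family, no direction is given for this class in that comparison. Against untreated wild type, 10 members were higher past 1.5-fold in Clk/Clk mice (Cox6b2, Ndufab1, Cox7a1, Ndufa7, Ndufb3, Ndufb7, Uqcr10, Ndufa5, Cox8a and Ndufc1) and 2 lower (Ndufaf6 and Ndufaf4), beside 10.6% and 8.82% of all genes. In PPARalpha-null mice these were 3 (Cox7a1, Ndufaf5 and Ndufab1) and 0, beside 3.96% and 2.69%. Between the mutants, Cox6b2 and Ndufb3 were higher and Ndufaf5 and Ndufaf6 lower in Clk/Clk mice past 1.5-fold, beside 7.43% and 7.78% of all genes.

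Other genes of the pathway are counted past 1.5-fold, where 12.8% of all genes rose and 7.77% fell with the drug, 5.35% were higher and 8.09% lower in PPARalpha-null mice, and 2.64% were higher and 6.49% lower in Clk/Clk mice. Of 8 measured electron carriers that serve the chain, 3 rose past 1.5-fold with bezafibrate and 1 fell. Etfdh, which passes electrons from fatty acid oxidation to coenzyme Q, rose by 0.98 and was 1.35 lower in PPARalpha-null mice (adjusted p = 4.14e-07 and 1.11e-07, limma). Etfb, a subunit of its electron donor, rose by 0.60 and was 0.73 lower in PPARalpha-null mice; neither gene passed the test in Clk/Clk mice (0.17 and 0.027). Gpd2, the glycerol-3-phosphate dehydrogenase of the inner membrane, rose by 2.03 and was lower in both mutants, by 1.05 and 1.12. Sqor, the sulfide oxidoreductase that also reduces coenzyme Q, fell by 1.28. Cycs, cytochrome c, rose by 0.42 and was 0.28 lower in PPARalpha-null mice.

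Of 22 complex IV assembly genes, 5 rose past 1.5-fold with the drug and none fell. They were the copper chaperones Cox17 (0.78), Cox19 (1.02) and Sco2 (0.72), and Cox20 (0.63) and Coa7 (0.61). In PPARalpha-null mice 3 of the 22 were lower past 1.5-fold (Cox17, Cox19 and Sco2, by 0.59 to 0.71). Sco2 was 0.82 higher and Cox18 0.59 lower in Clk/Clk mice. Of 8 complex I assembly genes without the Nduf prefix, none passed 1.5-fold with the drug and Ecsit was 0.64 higher in PPARalpha-null mice; of 5 complex III assembly genes, Uqcc2 was 0.65 lower in Clk/Clk mice. Atpif1, the inhibitor protein of ATP synthase, rose by 1.36 (adjusted p = 4.32e-07, limma) and was lower in both mutants, by 1.12 and 1.04, while the other 3 measured ATP synthase assembly genes did not pass 1.5-fold in any of these comparisons.

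Of 11 coenzyme Q synthesis genes, 4 rose past 1.5-fold (Coq4 by 1.23, Coq7 by 0.77, Coq3 by 0.69 and Coq6 by 0.66) and none fell that far. Coq3 and Coq4 were lower in PPARalpha-null mice, by 0.87 and 0.76, and Coq10a was 0.82 higher there. In Clk/Clk mice Coq10b, which binds coenzyme Q, was 1.39 lower (adjusted p = 3.26e-06, limma) and Coq8a 0.85 higher. Of 13 citric acid cycle genes, 3 rose past 1.5-fold and none fell that far: citrate synthase, Cs, rose by 1.55, Mdh2 by 0.87 and Idh2 by 0.64. Cs was 0.44 lower in PPARalpha-null and 0.68 lower in Clk/Clk mice.

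Among 7 measured carriers, Slc25a4, the adenine nucleotide carrier isoform of heart and skeletal muscle, rose by 2.90 (adjusted p = 1.84e-08, limma), from a mean of 7.52 to 10.42, and was 2.74 lower in PPARalpha-null mice, while its ubiquitous relative Slc25a5 differed by 0.056. Slc25a4 was 0.46 lower in Clk/Clk mice (adjusted p = 0.0159, limma). Ucp3, an uncoupling protein of muscle, rose by 0.78 and was 0.78 lower in PPARalpha-null mice.

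The last list holds regulators of mitochondrial gene expression. Of 15, 2 rose past 1.5-fold with bezafibrate (Gabpb1 by 0.91 and Tfb1m by 0.62) and 2 fell. Ppargc1a, the coactivator PGC-1α, fell by 2.53 (adjusted p = 5.47e-04, limma) and was 2.22 higher in PPARalpha-null than in treated wild-type mice. Polg2, a subunit of the mitochondrial DNA polymerase, fell by 0.60. Esrra, an orphan nuclear receptor that works with PGC-1α, fell by 0.44, Tfam, the mitochondrial transcription factor, rose by 0.34 and Nrf1 differed by 0.12 without passing the test. In Clk/Clk mice 6 of the 15 were higher at any size, beside 10.6% of all genes, with a list median of 0.27 against 0.020; Polg2 was 0.50 higher, and Gabpb1 was 0.60 lower, the 1 gene of the list to pass 1.5-fold there.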

How the data were processed

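Total RNA (250 ng per liver) was labelled and hybridised to 12 one-colour mouse expression arrays, 3 per group. Each probe set has a deposited value on a log2 scale, and RMA is named in the submitters' processing notes without version or settings. RMA corrects background and sets all arrays to 1 distribution, so a change shared by most genes would not show. The values are limited in precision by the number of arrays.

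Of 45101 probe sets, 64 controls were left out, 28344 lay at or above their array's 40th percentile on 3 or more arrays, and 23888 of these carry 1 gene symbol in the platform's annotation, which gives 13598 genes at 1 brightest probe set each. The annotation pairs 34945 probe sets with 1 symbol, 932 with several and 9160 with none, and 10 with several symbols, a member's among them, were left out of the test. All 92 members matched a gene in RefSeq's GRCm38.p6 table with the symbol unchanged.

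Group means over all 12 arrays were fitted in limma 3.58.1 (R 4.3.3; lmFit, eBayes), with Benjamini-Hochberg adjustment over 13598 genes. The fit was tested on simulated data. Isoform pairs were compared by exact two-sided permutation tests of within-array differences. Motifs were searched with Python 3.11.15.

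Members, gene lists and tests were chosen with earlier results of these data known. Genes named are all members past 1.5-fold, the 2 highest and 2 lowest of each class, tissue-specific isoforms with their partners, the 3 smallest adjusted p of each pathway list and set regulators. Alternatives were the filter, the probe set choice, centring, quantile normalization, array weights, trended and robust variance, the replicate number as a block, fits of 6 arrays and leaving out each mouse. Detection calls were not used here.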

Additional observations from a re-analysis of the deposited data

Results flagged for a closer look

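Between the mutants, both on bezafibrate and tested against each other in the limma fit over all genes (3 mice each), 4 members differed past 1.5-fold. Of the 92 members, 2 were higher and 2 lower in Clk/Clk mice, beside 7.43% and 7.78% of all genes. Cox6b2 was 4.74 higher in Clk/Clk than in PPARalpha-null mice (SE 0.22, adjusted p = 5.96e-08), and Ndufb3, an accessory subunit of complex I, was 0.71 higher (SE 0.073, adjusted p = 1.90e-05). The assembly factors Ndufaf5 and Ndufaf6 differed by -0.93 (SE 0.17, adjusted p = 0.00102) and -0.78 (SE 0.12, adjusted p = 3.59e-04). In each of the 4, every Clk/Clk mouse lay on the same side of every PPARalpha-null mouse.

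Outside the test, the 2 dimmer probe sets of Uqcr10 read 3.66 and 4.43 higher in treated PPARalpha-null mice than in untreated wild type, where the brightest probe set of the gene differed by 0.051.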

How the results depend on the processing

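Over all settings and members, 3792 values kept direction and side of the threshold, 204 turned sign with neither value past the test (58 of them on centring), 205 lost the test, 140 gained it and 9 turned sign with a value past the test; Cox6b2, Cox7a1 and Ndufab1 kept their rise past 1.5-fold with the drug in all of them. Centring arrays gave 27 members risen and 13 fallen with the drug, 13 higher and 9 lower in PPARalpha-null mice (2 higher past 1.5-fold), and 31 higher in Clk/Clk mice. Quantile normalization gave 6 risen past 1.5-fold (adding Ndufa7, Ndufc1 and Uqcr10). Averaging a gene's probe sets gave 3 higher past 1.5-fold in PPARalpha-null mice and 18 higher at any size in Clk/Clk mice, and leaving out suffixed probe sets gave 2 and, past 1.5-fold in Clk/Clk mice, 2. Trended, robust variance gave 27 lower in PPARalpha-null and 17 higher in Clk/Clk mice, no filter 5 higher in Clk/Clk mice, and fits of 6 arrays 4 fallen with the drug and 5 higher in Clk/Clk mice. Of 18 same-number pairs of arrays, 3 correlated over 0.1 in their deviations from the group means. Among the arrays of other groups, 7 of 12 arrays were most like one of their own number. Whether the replicate numbers mark a pairing or batch was not tested. The replicate block gave 6 higher in Clk/Clk mice. Isoform pair changes moved by more than 1 SD for Cox6a2 (-0.68 with the drug and 0.40 in PPARalpha-null mice, quantile), Ndufa4l2 (-0.59, quantile), Cox8b (-0.11, averaged) and Cox8c (-0.82 quantile, -0.34 averaged, and 0.23 in PPARalpha-null mice averaged). Reversed were Atp5h (0.21), Cox5b (-0.015), Ndufb2 (-0.12) and Ndufb8 (-0.23) with the drug, Ndufab1 (0.14) and Uqcr10 (-0.52) in Clk/Clk mice, and Uqcr10 (3.91) in PPARalpha-null mice without suffixed probe sets; Uqcr10 there when averaged (2.19); and Sdha with the drug, from -0.24 without untreated mouse 1 to 0.17 without untreated mouse 3. The settings without suffixed probe sets and with averaging read other probe sets, while for Sdha the same probe set was read with 1 mouse left out. Further causes were not tested. Without 1 mouse, counts with the drug ran from 3 to 4 and 1 to 2 past 1.5-fold and from 35 to 41 and 4 to 8 at any size; the fallen were 1 past 1.5-fold without treated wild-type mouse 3 or untreated mouse 2, and 4 at any size without treated wild-type mouse 1 or 2 or untreated mouse 2. In PPARalpha-null mice they ran from 1 to 2 and 3 to 3, and at any size from 5 to 5 and 12 to 15, with 2 (Ndufaf4 added) without treated wild-type mouse 3. In Clk/Clk mice they ran from 0 to 0 and 2 to 3, and at any size from 3 to 6 higher and 3 to 4 lower, so fewer than 10 were higher without any 1 of the 6 mice.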

Other observations

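Probe sets annotated to more than 1 symbol, left out of the test, gave values for members that the counts do not include. The one for Ndufab1 and its pseudogene Ndufab1-ps read 11.23, 11.31 and 11.25 in untreated wild type, 12.65, 12.72 and 12.61 in treated wild type, 11.83, 11.59 and 11.93 in PPARalpha-null mice and 12.52, 12.58 and 12.24 in Clk/Clk mice, which is the order of groups of the single-symbol probe set. Those for Ndufb4, a complex I accessory subunit, and its copies Ndufb4b and Ndufb4c were bright, with group means of 12.16 to 12.33, and differed by at most 0.074 in size between treated wild type and any other group. The one for Ndufs6 and Ndufs6b differed by 0.19 with the drug, by -0.15 in PPARalpha-null mice and by 0.073 in Clk/Clk mice, and the brighter of those for Ndufa11 and Ndufa11b differed by 0.13, 0.015 and -0.063.

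Dim second probe sets also differed in Clk/Clk mice where the bright ones did not pass the test: one of Ndufb8 by 0.72 against 0.094, and one of Atp5c1, the gamma subunit of ATP synthase, by 0.73 against 0.10.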
